A study of Mus musculus with 6 samples.

Results

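The genes described here encode the proteins that license, fire and copy replication origins, 52 genes in all, from the origin recognition complex to the factors that rebuild chromatin behind the fork. They were chosen as named components of the replication machinery, each by its probe set with exactly that gene symbol, and where a gene had more than 1 probe set the brightest over all 6 arrays was used. All 52 were measured, out of 19938 genes with a probe set of their own. Expression was measured in fetal livers of C57BL/6J mouse embryos at E14.5, in 3 embryos that lack Tmod3 (Tmod3-/-, labelled as having a small, anemic liver) and 3 wild type embryos (Tmod3+/+, labelled normal). Tmod3 encodes tropomodulin 3, an actin filament capping protein. The loss was present in the whole embryo, no treatment was given per the labels, and the sources used here do not give the allele. Each liver was a separate embryo and was read on 1 Affymetrix MoGene 1.0 ST array, so 3 arrays a group set the precision of all values.

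Fetal liver is at this age the main site of red cell formation, and many of its cells are dividing erythroid precursors that copy their genome between divisions. An origin is licensed when the origin recognition complex, with Cdc6 and Cdt1, loads the MCM helicase on DNA. The kinase of Cdc7 and Dbf4 then allows Cdc45 and the GINS complex to join the helicase, after which primase and the polymerases extend both strands, held to DNA by the clamp Pcna that the RFC complex loads. Many of these genes are known targets of the E2F transcription factors and peak together as cells enter S phase.

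Promoters are shown because E2F-type sites are a feature many of these genes share that the choice of members did not use. A RefSeq window (build GRCm38.p6) of 250 bases before to 50 bases after an annotated start was found for 43 of the 52 members and for 15614 of all measured genes. The windows were searched on both strands for TTTCCCGC, TTTCGCGC, TTTGCCGC and TTTGGCGC, 8-base forms bound by E2F factors, whose matches can overlap each other. A match was present in 17 of 43 members (39.5%) and in 543 of 15614 genes (3.48%). Per window, 18 of 53 member windows (34.0%) and 2.99% of all windows of the same length held one. The looser 7-base forms, which are these 4 without their first T and so overlap every 8-base match, were present in 28 of 43 members (65.1%) and 14.7% of all genes with a window. The element called CHR, found in genes of the late cell cycle and searched as TTTGAA and TTCGAA, was present in 9 of 43 members (20.9%) and 19.0% of all genes with a window, a share near the background. The 120 bases before the annotated start are given for the 6 members with an 8-base match there, 5′ to 3′ on the strand of the gene, with the matches in capitals. The other 11 members with a match had it elsewhere in the window. In Mcm6 a pair of matches overlaps at the distal site.
Orc1: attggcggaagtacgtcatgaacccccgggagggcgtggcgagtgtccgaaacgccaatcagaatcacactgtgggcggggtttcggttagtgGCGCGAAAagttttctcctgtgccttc
Orc3: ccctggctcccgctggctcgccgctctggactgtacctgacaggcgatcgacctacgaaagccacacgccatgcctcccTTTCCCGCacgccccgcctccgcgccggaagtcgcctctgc
Mcm6: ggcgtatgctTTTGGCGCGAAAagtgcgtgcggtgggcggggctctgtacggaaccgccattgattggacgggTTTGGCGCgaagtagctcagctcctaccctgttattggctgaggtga
Gins3: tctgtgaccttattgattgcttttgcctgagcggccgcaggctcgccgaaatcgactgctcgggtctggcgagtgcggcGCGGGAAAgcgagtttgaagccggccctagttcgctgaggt
Pole4: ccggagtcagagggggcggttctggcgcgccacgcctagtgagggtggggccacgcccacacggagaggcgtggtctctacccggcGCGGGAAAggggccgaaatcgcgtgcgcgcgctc
Rfc3: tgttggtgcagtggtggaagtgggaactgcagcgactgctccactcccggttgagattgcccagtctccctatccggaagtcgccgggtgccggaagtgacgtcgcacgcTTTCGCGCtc
The stretches lie at chr4:108579334-108579453 (Orc1, plus strand), chr4:34614943-34615062 (Orc3, minus strand), chr1:128359706-128359825 (Mcm6, minus strand), chr8:95633439-95633558 (Gins3, plus strand), chr6:82652875-82652994 (Pole4, minus strand) and chr5:151651209-151651328 (Rfc3, minus strand). The CCAAT box, the site of the factor NF-Y, was searched as CCAAT on both strands and was found in 24 of 43 members (55.8%) and 41.7% of all genes with a window. Pcna had 1 within the 120 bases shown (in capitals), while Orc2 and Rfc4, the members with the smallest p-values below, held neither an 8-base E2F-type match nor a CCAAT box in these bases.
Orc2: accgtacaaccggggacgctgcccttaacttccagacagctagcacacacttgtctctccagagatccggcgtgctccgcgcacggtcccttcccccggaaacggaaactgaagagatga
Pcna: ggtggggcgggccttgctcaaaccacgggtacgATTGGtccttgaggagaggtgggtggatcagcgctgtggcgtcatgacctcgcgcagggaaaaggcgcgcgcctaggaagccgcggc
Rfc4: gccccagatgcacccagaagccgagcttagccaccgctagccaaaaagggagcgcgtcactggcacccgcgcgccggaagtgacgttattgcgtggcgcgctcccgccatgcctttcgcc
These stretches lie at chr1:58505110-58505229 (Orc2, minus strand), chr2:132253181-132253300 (Pcna, minus strand) and chr16:23127731-23127850 (Rfc4, minus strand). Orc2 is nevertheless among the 24 members with a CCAAT box, which starts at base 21 after the start used here and at base -45 of a further annotated start. Orc2 and Rfc4 held no 8-base match in their whole windows either, which says only that these letters are not there. Of the looser 7-base forms, Rfc4 held 1 at base 12 after its start and Orc2 held 0.

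In knockout liver 49 of the 52 genes had a lower mean than in wild type liver, as did 48.4% of all 19938 genes. The median log2 fold change (knockout minus wild type) of the members was -0.27, against 0.01 over all genes. No member passed the threshold of an adjusted p under 0.05 with limma (0 of 52), where 3 of all genes did (0.0150%). At an unadjusted p under 0.05, 21 members were lower and 0 higher, against 6.44% of all genes lower and 2.59% higher. All 3 knockout arrays lay below all 3 wild type arrays for 20 members and above them for 0, against 7.10% and 6.14% of all genes. The smallest adjusted p of any member was 0.103 (limma, Orc2).

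Well expressed genes were in general lower in the knockout arrays, so the members are also given by level. A level is the mean of the deposited log2 values over the 6 arrays, whose medians lay between 1.36 and 1.43. Of the 15 members with a level of 4 or more, 15 had a negative log2 fold change, as did 80.4% of the 1562 genes of that level. The medians were -0.45 and -0.25. Against genes within the same 0.5 of level, 9 of these 15 lay below the median. For the 26 members between 2 and 4 the median was -0.30 against -0.16 for 3094 genes, with 24 members and 74.6% of the genes negative. For the 11 members below 2 it was -0.17 against 0.03 for 15282 genes, with 10 members and 39.9% of the genes negative. Among genes with a level of at least 2, an unadjusted p under 0.05 in the lower direction was reached by 20 of 41 members (48.8%) and by 22.0% of all such genes. Groups without overlap, knockout below, were seen for 17 of these 41 members (41.5%) and for 18.2% of all such genes.

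**Figure D1:**
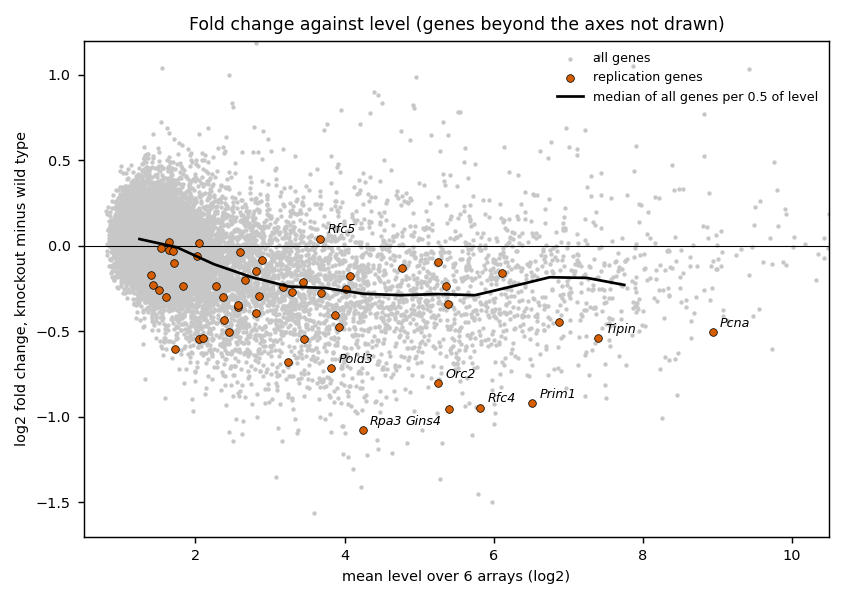
Log2 fold change (knockout minus wild type, y axis) against the mean log2 level over 6 arrays (x axis) for all genes (grey) and the 52 replication genes (orange), with the median of all genes per 0.5 of level as a line. Of the 15 members with a level of 4 or more, 9 lie below the median of all genes in the same 0.5 of level (Pcna is beyond the end of the line), and among all 52 Rpa3 is lowest at -1.08 and Rfc5, at a level of 3.67, highest at 0.04.

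The direction of the small differences depended on how the arrays were scaled. After the arrays were quantile normalized again, 41 of 52 members were lower (52.4% of all genes) and the median was -0.17. After cyclic loess, 41 of 52 were lower (52.1% of all genes), again with a median of -0.17. Both steps turned the sign of Gmnn, Mcm7, Dbf4, Pole3, Fen1 and Chaf1a, each of which had a log2 fold change between -0.18 and -0.04 as deposited. The sign of Mcm6 and Mcm10 turned only with quantiles and that of Orc5 and Rfc2 only with loess, while centring on array medians turned Dna2 and Timeless. Members with a level of 4 or more had a median of -0.32 after quantile normalization, against -0.08 for all genes of that level. Of these 15 members 11 were then negative, against 60.0% of all such genes. Groups without overlap, knockout below, were then seen for 14 members (7.54% of all genes) after quantile normalization and for 13 (7.36%) after cyclic loess. Orc6, Mcm5, Pola1, Prim2, Pole4, Rpa1 and Clspn lost their separation in both scalings and Pola2 with loess, while Mcm4 gained it in both. Unadjusted p-values under 0.05 in the lower direction were reached by 16 members (4.66% of all genes) and 14 members (4.63%) in these scalings (limma), and 0 members were higher at that p in either. At a level of 2 to 4 these were 6 and 5 of 26 members, against 11.1% and 10.7% of all such genes. At 4 or more they were 8 of 15 in each, against 13.8% and 14.8%.

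**Figure D2:**
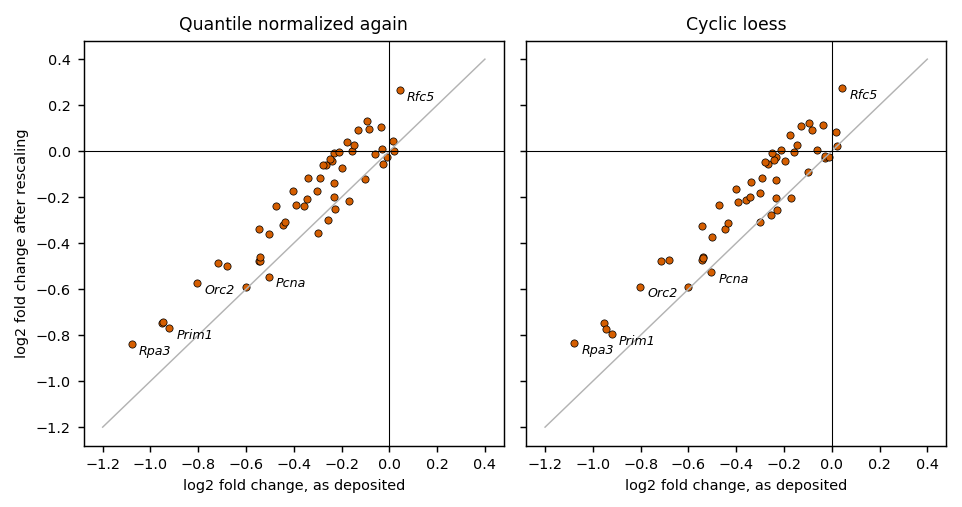
Log2 fold change of each of the 52 genes after renewed quantile normalization (left) or cyclic loess (right), on the y axis, against the value as deposited on the x axis; the grey line marks equal values. Rpa3 (-0.84 and -0.83 after rescaling), Prim1 (-0.77 and -0.79) and Orc2 (-0.57 and -0.59) stay well below 0, while Rfc5 moves up to 0.27 in both.

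The origin recognition complex marks the places where replication can start, and its 6 genes all had a lower mean in knockout liver, with a median log2 fold change of -0.36. Orc2, which encodes a core subunit (probe set 10354845), read 4.84, 4.80 and 4.91 in the knockout arrays and 5.72, 5.66 and 5.59 in the wild type arrays. Its groups were far apart relative to their spread, 4.85 ± 0.06 against 5.65 ± 0.06 (SD, n = 3 each). This is a 1.75-fold lower level, with a log2 fold change of -0.80 (SE 0.10, limma adjusted p = 0.103), where SE is the standard error. Orc2 passed without wild type replicate 1 (limma adjusted p = 0.0440) and with array weights (0.0419), and reached 0.475 without wild type replicate 2. The adjusted p of Orc2 was 0.375 after quantile normalization and 0.328 after cyclic loess (limma). Orc6, a subunit needed for loading the helicase, read 6.85, 6.49 and 6.60 against 7.13, 7.11 and 7.04, again with no overlap as deposited but with overlap after either rescaling. The log2 fold change of Orc6 came to -0.45 (SE 0.12, limma adjusted p = 0.329). Orc1, the ATPase that varies over the cell cycle, had -0.60, with a knockout mean of 1.43 that is at the array medians. The groups overlapped for Orc3 (-0.23), Orc4 (-0.27) and Orc5 (-0.21), in each of which wild type replicate 1 lay below at least 1 knockout array, and these values shrank to between -0.06 and 0.01 after rescaling.

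The loaders of the helicase and their inhibitor showed small differences. Cdc6, the ATPase that recruits the helicase to the origin, read 2.35, 2.23 and 1.90 against 2.26, 2.45 and 2.47. The groups overlapped, and the log2 fold change was -0.23 with a 95% interval of -0.55 to 0.09 (limma). Cdt1, the partner of Cdc6 in loading, had -0.03 (interval -0.35 to 0.30) near the array medians, and Gmnn, which encodes geminin, the inhibitor of Cdt1, had -0.18 (-0.53 to 0.18). None of these 3 genes reached an unadjusted p under 0.05 (limma).

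The 6 genes of the MCM2-7 helicase, the ring that unwinds DNA, had log2 fold changes from -0.68 to -0.08 with a median of -0.32. Mcm4 read 3.61, 3.86 and 3.61 in knockout and 3.83, 4.46 and 4.20 in wild type liver. The overlap came from wild type replicate 1, which lay below knockout replicate 2. Mcm4 had -0.47 (SE 0.17, limma adjusted p = 0.455), and -0.24 after quantile normalization, when its groups no longer overlapped. Mcm5 read 2.38, 2.67 and 2.78 against 2.85, 2.94 and 3.22, the only subunit of the 6 without overlap as deposited, with -0.39 (SE 0.15, limma adjusted p = 0.484). After quantile normalization and cyclic loess Mcm5 had -0.23 and -0.22 with overlap. Mcm2, chosen for its values after they were seen, had the lowest fold change, -0.68, but its knockout arrays spread from 2.30 to 3.40. Mcm3 (-0.24), Mcm6 (-0.16) and Mcm7 (-0.08) had intervals that include 0, the widest for Mcm6 (-0.61 to 0.29).

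Activation of the loaded helicase brings in Cdc45 and the GINS complex, which together with MCM form the working helicase. All 4 GINS genes were lower by mean, Gins1 with a log2 fold change of -0.54, Gins2 -0.54, Gins3 -0.36 and Gins4 -0.95. Gins4 read 5.02, 5.25 and 4.51 in knockout and 5.29, 6.05 and 6.30 in wild type liver. Its groups were separated by only the small gap between knockout replicate 2 and wild type replicate 1, with SE 0.28 and a limma adjusted p of 0.368. Gins2 read 2.04, 1.66 and 1.65 against 2.12, 2.35 and 2.51, also without overlap (SE 0.15, limma adjusted p = 0.343). Gins1 also had no overlap, while for Gins3 knockout replicate 3 (2.64) lay above wild type replicate 2 (2.50). Cdc45 had -0.44, with wild type replicate 1 (2.19) below knockout replicate 1 (2.23). The GINS and Cdc45 values stayed negative after both rescalings, between -0.75 and -0.21. The kinase genes were close to 0: Cdc7 had -0.01 (limma interval -0.30 to 0.28) and its activator Dbf4 -0.09 (-0.48 to 0.29). Mcm10, which helps to activate the helicase, had -0.03 (-0.47 to 0.41). Cdc7 and Mcm10 had levels of only 1.54 and 1.70, near the array medians, which limits what their values show. Dbf4 had a level of 5.25.

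All 11 genes of the polymerases and primase had a lower mean in knockout liver, and for 7 of them the groups did not overlap, where 7.10% of all genes and 18.2% of those with a level of at least 2 had knockout wholly below. Only 7 of the 11 have a level of at least 2, and Pole and Pola2, which did not overlap, are not among them. The count was 4 of 11 after quantile normalization (7.54% of all genes) and 3 of 11 after cyclic loess (7.36%). Primase makes the RNA primers that start every new strand. Prim2, its large subunit, read 2.03, 1.72 and 1.76 in knockout and 2.31, 2.13 and 2.70 in wild type liver, a difference of -0.54 on the log2 scale (SE 0.16, limma adjusted p = 0.390). After rescaling Prim2 overlapped, at -0.48 and -0.46. Prim1, the catalytic subunit, named after its values were seen, had -0.92, but knockout replicate 1 (6.79) lay with the wild type arrays (6.78, 7.17 and 6.97) while knockout replicates 2 and 3 read 5.80 and 5.58. Pold3, an accessory subunit of polymerase delta, read 3.52, 3.64 and 3.22 against 3.82, 4.45 and 4.26. Its groups did not overlap, at -0.72 (SE 0.18, limma adjusted p = 0.309). The catalytic subunit gene Pold1 (-0.23) and Pold2 (-0.23) overlapped and had means below 2 in both groups. Of the polymerase epsilon genes, the catalytic Pole had -0.30, Pole2 -0.34 and Pole4 -0.28, each without overlap, and Pole3, a histone-fold subunit, had -0.13 with overlap. For Pole the level was 1.61, near the array medians, and its highest knockout and lowest wild type arrays read 1.52 and 1.54. Pole4 shrank to -0.06 with quantiles and -0.05 with loess, and Pole2 to -0.21 and -0.20. Pola1, the catalytic subunit of polymerase alpha, had -0.34 and Pola2 -0.10, without overlap. For Pola2, at a level of 1.71 near the array medians, the highest knockout and the lowest wild type array both read 1.69 at 2 decimals. Pola1 was -0.12 and -0.13 after the respective rescalings, with overlap.

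Pcna, the ring that keeps polymerases on DNA, read 8.86, 8.58 and 8.62 in knockout and 9.16, 9.21 and 9.20 in wild type liver, and the groups did not overlap. The means were 8.68 ± 0.15 and 9.19 ± 0.03 (SD, n = 3 each), which differ by -0.50 on the log2 scale (SE 0.11, limma adjusted p = 0.242). The value was -0.55 after quantile normalization and -0.52 after cyclic loess. A further probe set named Pcna gave -0.50, but it read nearly the same in every array (8.87, 8.56 and 8.61 against 9.16, 9.20 and 9.19). It is therefore not taken as a separate measurement. Rfc4, a small subunit of the clamp loader (probe set 10438690), read 5.56, 5.24 and 5.23 against 6.19, 6.27 and 6.41. The groups lay clearly apart, 5.34 ± 0.19 against 6.29 ± 0.11 (SD, n = 3 each), a 1.93-fold lower level at -0.95 on the log2 scale (SE 0.13, limma adjusted p = 0.104). Rfc4 passed without wild type replicate 1 (limma adjusted p = 0.0450), and reached 0.475 without wild type replicate 2. After quantile normalization and cyclic loess its adjusted p was 0.185 and 0.163 (limma). The other RFC subunits had smaller values. Rfc5 read 3.68, 3.54 and 3.87 against 3.21, 3.95 and 3.80, the highest fold change of all members at 0.04 (interval -0.41 to 0.49), Rfc2 had -0.06, the large subunit Rfc1 -0.25 and Rfc3 -0.50, all with overlap.

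RPA coats the single strands that the helicase exposes. Rpa3, its smallest subunit, had the lowest fold change of all members. It read 3.45, 4.12 and 3.55 in knockout and 4.46, 4.51 and 5.38 in wild type liver, a 2.11-fold lower level with no overlap. On the log2 scale the difference was -1.08 (SE 0.27, limma adjusted p = 0.303). A different probe set named Rpa3 read 3.45, 3.23 and 3.33 against 3.29, 3.73 and 3.66, with overlap and a difference of only -0.22, so the probe sets of this gene disagree. Rpa1 had -0.20 without overlap and Rpa2 -0.30 with overlap, and neither reached an unadjusted p under 0.05 (limma). Rpa1 overlapped after rescaling, at -0.07 with quantiles and -0.04 with loess.

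The genes that finish the lagging strand showed no separation, with a median of -0.15 over 4 genes. Rnaseh2a, the catalytic subunit of an enzyme that removes RNA from DNA, read 1.16, 1.26 and 1.73 against 1.89, 1.55 and 1.48, near the array medians, with -0.26 (limma adjusted p = 0.745). Lig1, which joins Okazaki fragments, read 2.53, 3.15 and 2.43 against 2.49, 3.22 and 3.27, with -0.29 and an interval from -0.87 to 0.29. For Lig1 knockout replicate 2 lay with wild type replicates 2 and 3, and wild type replicate 1 with the other knockout arrays. Fen1, the flap nuclease, had -0.04 (interval -0.32 to 0.24) and Dna2, a nuclease and helicase, 0.02 (-0.26 to 0.29).

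Tipin and Timeless form a complex that holds the helicase and polymerase together at the fork, and Clspn encodes claspin, which passes on checkpoint signals there. Tipin read 7.25, 7.07 and 7.07 in knockout and 7.85, 7.72 and 7.45 in wild type liver. The groups did not overlap, at -0.54 (SE 0.13, limma adjusted p = 0.287), and the value was -0.46 after quantile normalization. Its partner Timeless, near the array medians, had 0.02 (interval -0.21 to 0.26), and Clspn had -0.40 without overlap. The value of Clspn fell in size to -0.17 and -0.16 after quantile normalization and cyclic loess, with overlap. The chromatin assembly factor genes, whose products place histones on new DNA, had -0.15 for Chaf1a and -0.17 for Chaf1b. Chaf1b read 1.46, 1.30 and 1.18 against 1.63, 1.45 and 1.38, with overlap and near the array medians (limma adjusted p = 0.752).

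**Figure D3:**
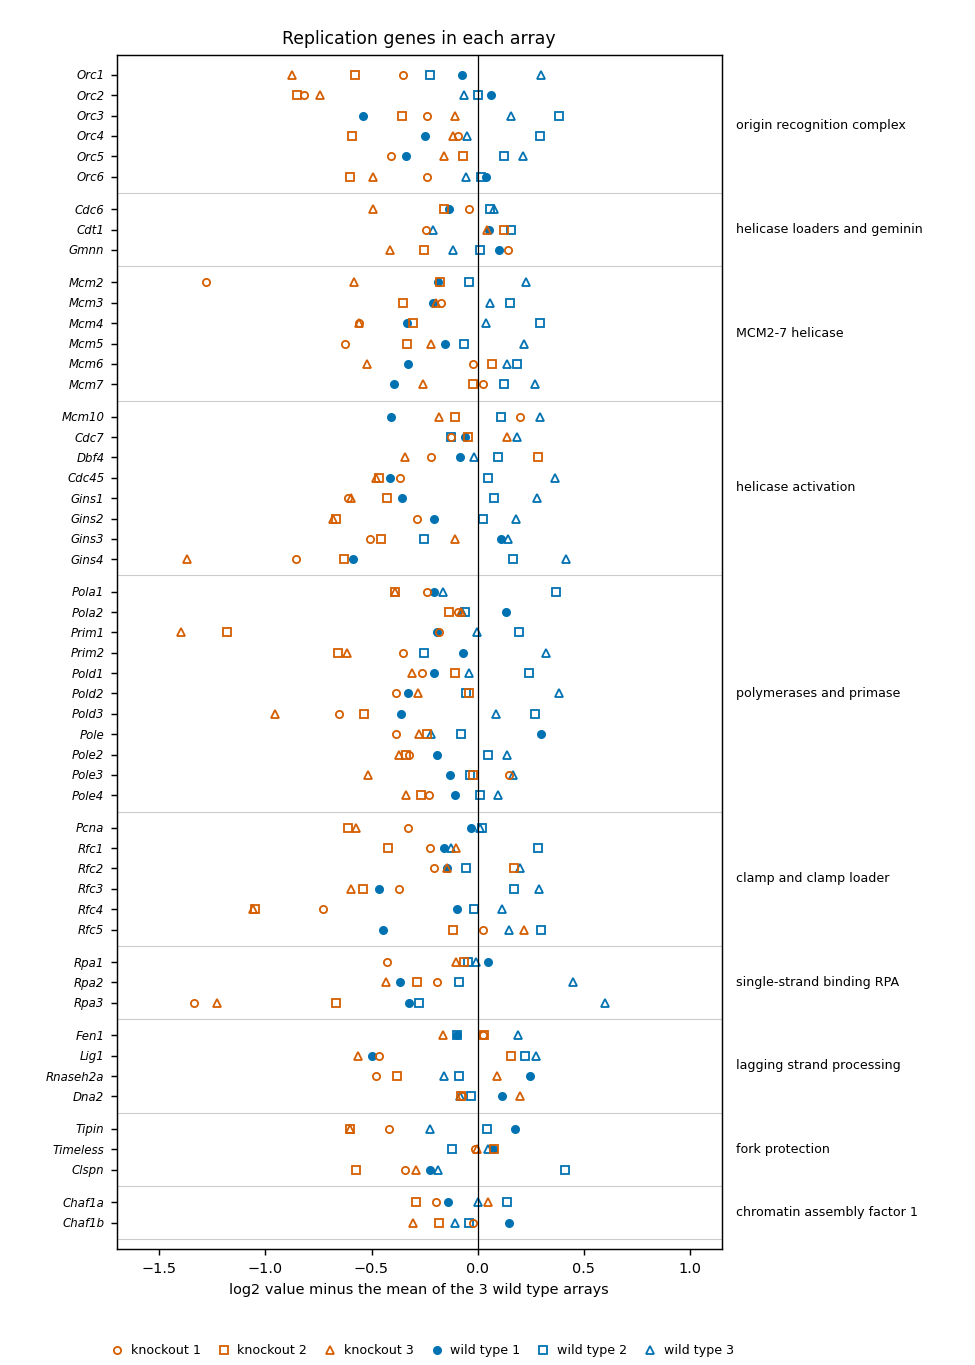
Each row is a gene and each point an array, placed at its log2 value minus the mean of the 3 wild type arrays (x axis), with knockout in orange, wild type in blue and wild type replicate 1 filled. In 20 of 52 rows all orange points lie left of all blue points (7.10% of all genes), and in 15 more they overlap only through the filled point (10.1% of all genes).

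The arrays within a group differed, and in the mean of the 52 genes wild type replicate 1 lay closest to the knockout arrays. The scale of the arrays differed in the same way. An upper percentile of all values was 4.07 and 4.13 in wild type replicates 2 and 3. It was 3.68 in wild type replicate 1 and 3.67, 3.82 and 3.68 in the knockout arrays. Whole arrays were less clear: wild type replicates 1 and 2 correlated at 0.983 and 0.980 with knockout replicate 1, but at 0.978 and 0.980 with knockout replicate 2. Averaged over the 52 genes, the knockout arrays had 3.28, 3.28 and 3.20 and the wild type arrays 3.44, 3.66 and 3.70. The groups thus did not overlap in this mean, and wild type replicate 1 lay 0.18 above the mean of the knockout arrays and 0.24 below that of the other wild type arrays. It was the lowest wild type array for 36 of 52 members (69.2%) and for 38.5% of all genes. At a level of at least 2 it was so for 33 of 41 members (80.5%) and for 73.7% of all such genes. For 15 members the groups overlapped only through this array, with knockout below, as for 10.1% of all genes. At a level of at least 2 these were 14 of 41 members and 28.8% of all such genes. In all, 35 members had every knockout array below wild type replicates 2 and 3, against 17.2% of all genes. That count joins groups without overlap and groups that overlapped only through wild type replicate 1. At a level of at least 2 these parts were 17 and 14 of 41 members, against 18.2% and 28.8% of all such genes, so much of the contrast with 17.2% goes with level. Without wild type replicate 1, 29 members were lower and 0 higher at an unadjusted p under 0.05, against 11.2% of all genes lower at that p (limma). That share includes the 15282 genes below a level of 2 and was not split by level. This fit sets knockout against only the wild type arrays with the higher upper percentile. The part of array scale in its counts was not tested. In the same fit 2 members, Orc2 and Rfc4, passed over all genes, where 95 genes did (0.476%, limma).

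Further lists of S phase and mitosis genes had medians between -0.33 and -0.24, against -0.19 for all genes with a level of at least 2. The list medians also cover dimmer genes. A wild type mean of at least 2 was seen in 33 of 43 further replication factors and 10 of 12 precursor synthesis genes. It was seen in 9 of 13 E2F and Rb genes and 23 of 23 mitosis genes. These lists and the cell type markers below are given on the deposited scale only. An unadjusted p under 0.05 in the lower direction was reached by 6.44% of all genes (limma). Of genes with a level of at least 2 it was reached by 22.0%. The shares of the lists ran from 16.7% to 30.4%, on both sides of that 22.0%. Of 43 measured further replication factors, 36 were lower by mean (83.7%), with a median of -0.26. By mean, 74.6% of all genes at a level of 2 to 4 and 80.4% at 4 or more were lower. Of the 43 factors 11 were lower (25.6%) and 0 higher at an unadjusted p under 0.05, and 0 passed over all genes (limma). Those with the smallest p were Rnaseh2b, a partner of Rnaseh2a, with -0.90, the S phase cyclin gene Ccne2 with -0.98, the checkpoint kinase gene Chek1 with -1.05 and Dscc1, of an alternative clamp loader, with -1.08. Rnaseh2b read 4.51, 4.14 and 4.08 against 5.08, 5.17 and 5.17, clearly without overlap (limma adjusted p = 0.139). For 12 genes of DNA precursor synthesis the median was -0.30, with 2 lower and 0 higher at an unadjusted p under 0.05. These were the ribonucleotide reductase genes Rrm1 and Rrm2 (-0.75 each), and Dck (-0.43) and Tyms (-0.33) came next. The 13 genes of the E2F and Rb families had a median of -0.24, with 3 lower and 0 higher at that p, namely Tfdp2, an E2F partner, with -0.60, E2f6 with -0.89 and Rbl1 with -0.44, and then E2f5 with -0.35. The 23 mitosis genes had a median of -0.33, with 7 lower and 0 higher, led by Anln (-0.50), Kif23 (-0.41), Aurka (-0.45) and Ccnb2 (-0.71). In these 3 lists 0 genes passed over all genes with limma.

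Among the 43 members with a promoter window, the 17 with an 8-base E2F-type match had log2 fold changes from -0.72 to -0.03 with a median of -0.29, and all 17 were negative. The 26 without a match ranged from -1.08 to 0.04 with a median of -0.22, and 23 were negative. Over all 543 genes with a match the median was -0.05. The members with the lowest fold changes for which a window was found, Rpa3, Rfc4, Prim1 and Orc2, were all in the group without a match. By the 7-base forms, the 28 with a match had a median of -0.27 and the 15 without one -0.21, and Rpa3, Rfc4 and Prim1 were then among those with a match.

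Tmod3 itself read 1.32, 2.36 and 1.30 in knockout and 4.49, 4.78 and 4.90 in wild type liver, so each array matched its label. Markers of other liver cells are given beside the replication genes. For comparison, 6.44% of all genes and 22.0% of those with a level of at least 2 were lower at an unadjusted p under 0.05 (limma). By mean, 39.9% of all genes below a level of 2 were lower, 74.6% at 2 to 4 and 80.4% at 4 or more. The part of level and array scale in the marker counts was not tested. Of 9 measured erythroid markers (12 listed), 8 had a wild type mean of at least 2, and 9 were lower in knockout liver by mean, 5 of them at an unadjusted p under 0.05. The mean of the erythroid list ran from 4.49 to 4.86 over the knockout arrays and from 4.86 to 5.30 over the wild type arrays. For 10 hepatoblast and hepatocyte markers, 9 of them with a wild type mean of at least 2, it ran from 5.32 to 6.24 and from 6.17 to 6.61, with 8 lower by mean and 5 of these at an unadjusted p under 0.05. For the 10 macrophage markers it ran from 1.66 to 2.14 and from 2.08 to 2.44, for the 5 measured megakaryocyte markers from 3.62 to 3.94 and from 3.94 to 4.06, and for the 7 neutrophil markers from 2.47 to 3.18 and from 2.62 to 2.93. The 8 endothelial markers ran from 1.87 to 2.06 in knockout and from 1.80 to 1.88 in wild type liver, and the 6 mesenchymal markers from 1.94 to 2.16 and from 1.84 to 2.07. By mean, 7 endothelial and 5 mesenchymal markers were higher in knockout liver, 1 of each at an unadjusted p under 0.05 (2.59% of all genes, limma). Only 3 of the 8 endothelial and 1 of the 6 mesenchymal markers had a wild type mean of at least 2. The mesenchymal one was Dcn, which was lower by mean (-0.21). Lower by mean were 8 of 10 macrophage, 3 of 5 megakaryocyte and 3 of 7 neutrophil markers. The part of these cell types in the replication values was not tested. In bulk liver, fewer dividing cells and less of a transcript in each cell cannot be told apart.

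**Figure D4:**
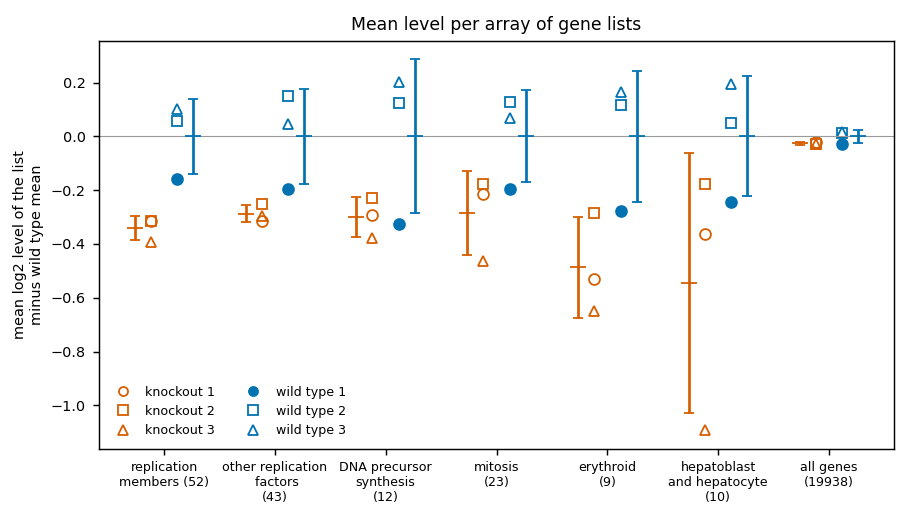
Mean log2 level of each gene list per array, minus the mean of its 3 wild type arrays (y axis), with knockout in orange, wild type in blue, wild type replicate 1 filled, and mean ± SD (n = 3) beside the points. The 52 replication genes have tightly grouped knockout arrays (3.20 to 3.28 in mean level) below all wild type arrays (3.44 to 3.70). The 43 further replication factors do so too (3.45 to 3.52 against 3.57 to 3.92). The erythroid list is also without overlap, while the DNA precursor, mitosis and hepatocyte lists overlap. The hepatocyte list spreads more widely in knockout liver.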

How the data were processed

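RNA of the 6 livers was isolated in Trizol and 6 ug of each were biotin-labelled, per the labels' protocols. The deposited table holds 1 log2 value per probe set and array, made by the authors with RMA (submitters' processing notes, version not stated). No source used here states the log base, which was read from the range of the values. The upper quantiles of the arrays are unequal, unlike after a plain quantile step, and the percentile given above was highest in wild type replicates 2 and 3. Fold changes are therefore on the scale of the deposited values, whatever further step made it. Of 28853 probe sets, 21789 had 1 gene symbol in the platform annotation, 1621 had several and 5443 had none there. These gave 19938 genes at 1 probe set each, with no filter on dim genes.

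The groups were compared in limma 3.58.1 under R 4.3.3, using lmFit and eBayes, two-sided. P-values were adjusted by Benjamini-Hochberg across the whole table and called under 0.05, and the fit was checked on simulated data. Standard errors and 95% intervals are limma's. Array values were given for Pcna, for the members with the smallest p in each role (2 in roles of over 3 genes, otherwise 1) and for the highest and lowest fold change. Up to 4 genes by smallest p were named from each further list of S phase and mitosis genes, and cell type markers were given as lists. Mcm2 and Prim1 were added after their values were seen. The level bands, the promoter motifs (4 sets were searched, all given) and the 3 stretches shown without an E2F-type match were also chosen after values were seen. The members and lists were chosen with earlier results of these data known, so their counts and medians are descriptions set beside all genes. Alternatives were other scalings, probe set means, level filters, variance models, array weights, a replicate block and leaving out each array.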

Additional observations from a re-analysis of the deposited data

How the results depend on the processing

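With limma, 3 genes passed as deposited, 6 after renewed quantile normalization (3 lower, 3 higher), 8 after cyclic loess (4 lower, 4 higher), 11 with array weights and 15 among genes with a level of at least 3. Leaving out 1 array gave 0 to 95 genes (95 without wild type replicate 1, 1 without knockout replicate 1, 0 without wild type replicate 2, where 1085 had an unadjusted p under 0.05). With the replicate number as a block 0 genes passed (limma, 1787 at an unadjusted p under 0.05). The numbers are not shown to pair the embryos: deviations of same-numbered arrays correlated at 0.11, 0.06 and -0.11. The count of members that passed was 0 as deposited and under the block, 1 with array weights (Orc2) and 0 to 2 when 1 array was left out. The members' median log2 fold change lay between -0.39 and -0.21 when 1 array was left out, was -0.17 after either rescaling, and was -0.40 over the 25 members with a level of at least 3. Rfc5 turned negative with array weights (-0.11) and in part of the fits that left out 1 array (-0.18 to 0.19), and the cause was not tested. No other gene whose array values were given for the members changed sign under these alternatives. Role medians stayed negative throughout, from -0.02 for lagging strand genes after cyclic loess to -1.08 for RPA, where only Rpa3 has a level of at least 3. The 11 members below a level of 2 lie close to the array medians, which limits what their values show.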
